A study of Homo sapiens with 6 samples.

Results

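The genes described here are 10 genes of elastic fibres and microfibrils: ELN, LOX, FBLN1, FBLN2, FBLN5, EFEMP1, EFEMP2, FBN1, FBN2 and LTBP1. They were chosen by symbol, matched through the Entrez gene number, and are 10 of the 25702 genes in the deposited table. RNA was sequenced from RMS13, an established human rhabdomyosarcoma line (a tumour with features of skeletal muscle). In the siGLI1 group (3 libraries) the cells had received a small interfering RNA against GLI1, the zinc finger transcription factor at the end of the Hedgehog pathway. In the siNT2 group (3 libraries) they had received a non-targeting siRNA, and the labels give 72 h of incubation in RPMI medium for the knockdowns. RNA was prepared as mRNA libraries from bulk cultures of this 1 line. The labels give neither the siRNA sequences nor whether replicates were separate cultures, so the p-values below speak of library-to-library spread, part or all of which may be technical.

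Elastic fibres let tissues stretch and recoil. They consist of a core of cross-linked elastin laid down on a scaffold of fibrillin microfibrils. Cells secrete the soluble precursor tropoelastin, short fibulins carry it and the lysyl oxidases to the microfibrils, and lysyl oxidase then joins the chains covalently. The same microfibrils hold latent TGF-beta in the matrix through the latent TGF-beta binding proteins. In muscle, these proteins belong to the connective tissue around fibres and vessels, and myogenic cells secrete some of them too.

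Of the 10 genes, 8 had a mean normalised read count (reads divided by a size factor per library, as deposited) of 10 or more and were tested with limma. After GLI1 knockdown the elastin gene ELN was lower in all 3 siGLI1 libraries and the fibulin gene FBLN5 was higher in all 3, and both passed the test at an adjusted p under 0.05. The other 6 did not pass it. Thus 1 of the 8 tested genes rose and 1 fell (12.5% each), where 7.21% of all tested genes rose and 8.0% fell. The groups did not overlap in 2 genes that were higher in siGLI1 (FBLN5 and LOX) and 2 that were lower (ELN and FBLN1), against 17.4% and 18.8% of all tested genes. The median log2 fold change (siGLI1 minus siNT2, computed on log2 of the count plus 1) was -0.36 over the 8 genes and -0.01 over all 15622 genes tested. In these bulk libraries, fewer cells that express a gene and less RNA per cell cannot be told apart.

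GLI1 itself was at 579.9, 906 and 1274 normalised reads in the siGLI1 libraries, against 11962, 17837 and 12774 in the siNT2 libraries. Recovered reads per library ranged from 13673977 to 18947614. The muscle regulators MYOD1 and MYOG were between 9229 and 22293 normalised reads in every library of both groups, and 7 skeletal muscle genes summed to 35381 to 49706 in siGLI1 and 29789 to 40639 in siNT2 libraries. Of the 6 tested genes of that list 2 rose and 0 fell, and MYF5, another muscle regulator in it, was at or below 3 in every library. A list of 8 fibroblast markers summed to 1175 to 1375 normalised reads in siGLI1 libraries and 1263 to 1703 in siNT2 libraries, 2 of its 7 tested genes rose and 0 fell, and no gene of it was at 3 or fewer normalised reads in every library. A list of 5 smooth muscle markers summed to 231.1 to 332 and 230.5 to 377, with 1 of 4 tested genes higher. Endothelial markers (5 genes) summed to 140.2 to 165 in siGLI1 and 67.95 to 122.8 in siNT2 libraries, where 1 of 2 tested genes, PECAM1, rose. Epithelial markers (5 genes) summed to 93.96 to 103.3 in siGLI1 and 125.2 to 155 in siNT2 libraries, and blood markers (5 genes) to 20.5 to 44.4 in siGLI1 and 15.2 to 16.5 in siNT2 libraries, with 0 genes called in either list. CDH1, KRT19, PTPRC and HBB stayed at or below 3 in every library. All libraries came from cultures of 1 line, so these sums describe the expression of marker genes. Their part in the results below was not tested.

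Libraries of one group also differed along the GC content of transcripts. Across 14438 genes, Spearman's rho of transcript GC content with the difference between a library and the mean of its group was -0.70, -0.31 and 0.75 in siGLI1 replicates 1, 2 and 3, and -0.49, 0.70 and -0.60 in siNT2 replicates 1, 2 and 3. Over the same genes, rho of GC content with the log2 fold change between the groups was -0.29. For the 8 tested genes, values with each library's GC trend removed are therefore given beside the main ones. The trend was taken on deviations from the mean of all 6 libraries. Its removal thus also takes away group difference that follows GC content, not only spread within groups. In the fit with the trend removed 17.4% of genes were called higher and 16.7% lower.

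**Figure D1:**
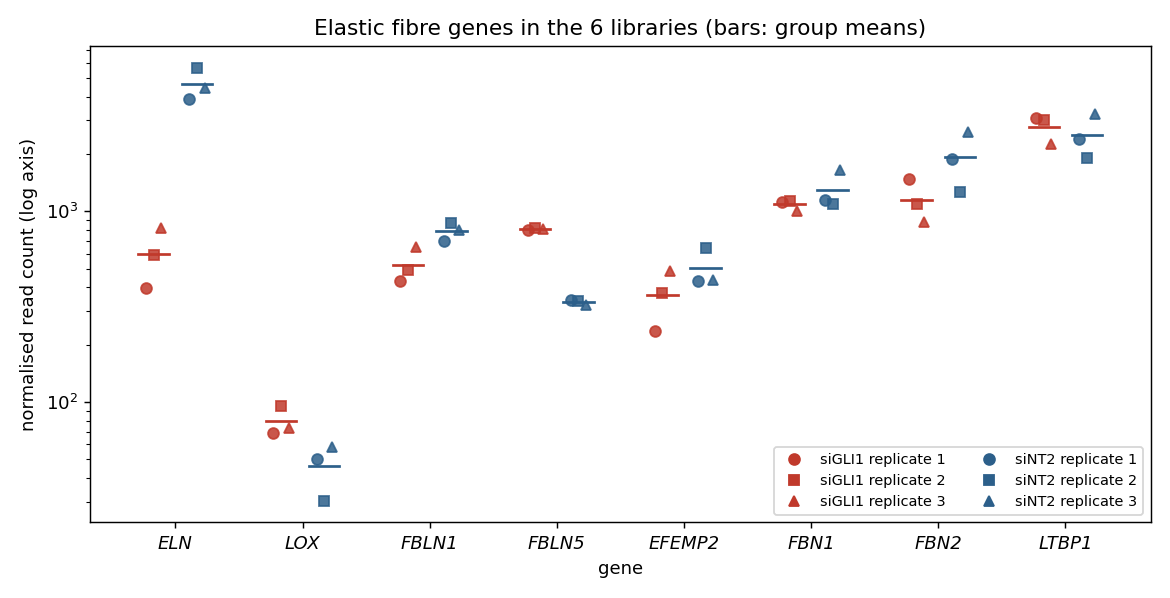
Normalised read count (log axis) of the 8 tested genes in each library, with siGLI1 in red, siNT2 in blue, a marker shape per replicate number and a bar at the group mean. ELN in siGLI1 libraries (397 to 816) lies far below siNT2 libraries (3901 to 5683), FBLN5 lies above with hardly any spread, and EFEMP2, FBN1, FBN2 and LTBP1 overlap between groups.

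ELN encodes tropoelastin, the elastic core protein. Normalised reads of ELN numbered 397, 591 and 816 in the siGLI1 libraries, against 3901, 5683 and 4422 in the siNT2 libraries. The highest siGLI1 library was thus far below the lowest siNT2 library. ELN averaged 601 ± 209 in siGLI1 and 4669 ± 916 in siNT2 cells (SD, n = 3 each), so that 12.9% of the siNT2 level was left. In limma, ELN fell with a log2 fold change of -2.997 and a standard error of 0.27 (adjusted p = 0.000928; 95% interval -3.62 to -2.37), and of 15622 tested genes 34 had a lower fold change. By mean count ELN stood at place 5789 among the tested genes in siGLI1 cells and at place 480 in siNT2 cells. The decrease was called in all 6 fits that left out a library (-3.25 to -2.73). With the GC trend removed it was -2.78 (95% interval -3.06 to -2.50). ELN shares its locus with the antisense gene ELN-AS1 in the RefSeq annotation, and whether reads were counted by strand is not given in the sources used here.

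ELN was highest in the library of each group in which GLI1 was highest, and lowest where GLI1 was lowest. In siGLI1 cells ELN counts were 68.5%, 65.2% and 64.0% of the GLI1 counts of the same library, and in siNT2 cells 32.6%, 31.9% and 34.6%. The ratio thus varied little within a group, while ELN itself had a coefficient of variation of 34.8% in siGLI1 and 19.6% in siNT2. Both genes are GC-rich (61.6% for ELN and 58.6% for GLI1), and the libraries highest for both, siGLI1 replicate 3 and siNT2 replicate 2, were those in which GC-rich genes as a whole were high. Removing the GC trend brought the within-group SD of ELN to 0.17 log2 units, against 0.42 with the deposited scaling. FBLN1 and EFEMP2, neither of them called, had the same highest and lowest libraries, so the order was not particular to ELN. EFEMP2 had a coefficient of variation of 34.8% in siGLI1 and 23.8% in siNT2, and GLI1 had 37.8% and 22.4%. The part of GC content in this shared order was not tested.

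Among 12657 other genes with a mean of 50 or more, those whose centred log2 values over the 6 libraries lay closest to those of ELN included STRA6, SEMA3F, CROCC2 and MAB21L4. Their root mean square distance from ELN ran from 0.12 (STRA6) to 0.15 (MAB21L4) log2 units. The log2 fold changes of these 4 lay between -3.04 (STRA6) and -2.83 (SEMA3F), and their GC content between 59.0% and 66.5%. STRA6, a cell surface receptor for retinol binding protein, was at a mean of 568 in siGLI1 and 4606 in siNT2 cells. SEMA3F, a secreted semaphorin, was at 55.4 in siGLI1 and 395 in siNT2 cells. GLI1 took place 46 in that order, at 0.50 log2 units, with a log2 fold change of -3.996 (-3.82 with the GC trend removed). These distances are a description over 6 libraries that share the contrast, with no test.

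**Figure D2:**
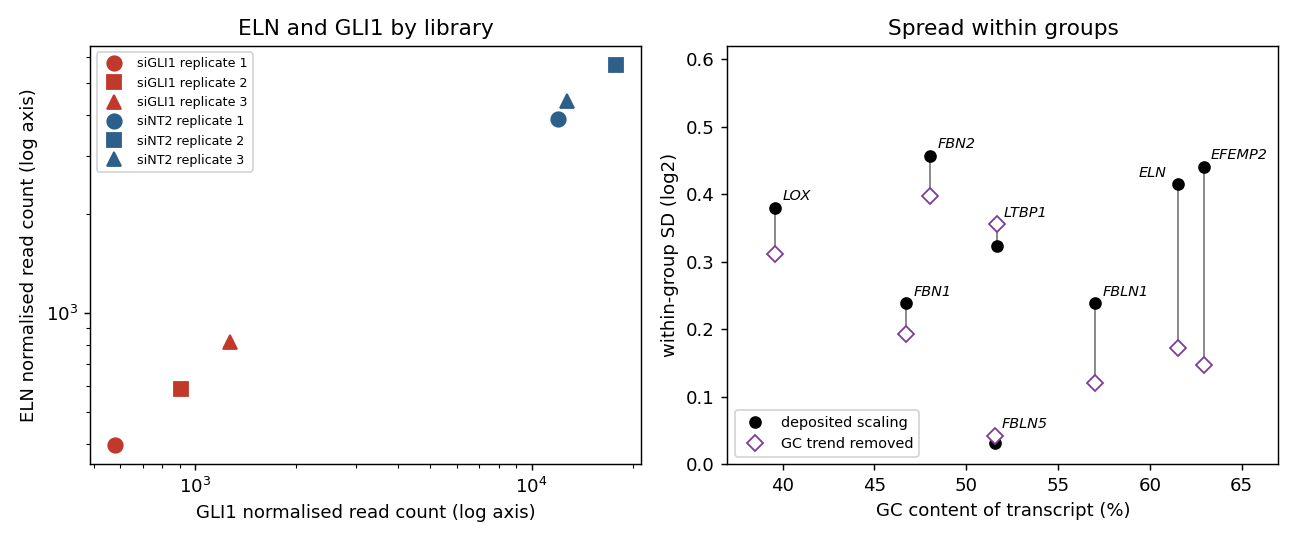
Left, ELN against GLI1 normalised read count (both log axes) in each of the 6 libraries. Right, within-group SD of the log2 values of the 8 tested genes against the GC content of their transcript, as deposited (black) and with each library's GC trend removed (open diamonds); the SD of ELN was 0.42 and 0.17, and that of FBLN5 0.03 and 0.04.

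LOX encodes lysyl oxidase, the copper enzyme that cross-links elastin and collagen. LOX counts, normalised, were 69.1, 95.1 and 73.1 in the siGLI1 libraries, against 50.5, 30.4 and 58.2 in the siNT2 libraries. The groups did not overlap, and the nearest libraries were siGLI1 replicate 1 and siNT2 replicate 3. The difference came to 0.79 log2 units (adjusted p = 0.0979, limma; 95% interval 0.14 to 1.44), so LOX did not pass the test, and it was not called without any single library (adjusted p 0.0917 to 0.305). Without siNT2 replicate 2 the difference was 0.52 log2 units. With the GC trend removed it was 0.62 (adjusted p = 0.0684). LOX has the most AT-rich transcript of the 8, with a GC content of 39.6%. Its locus overlaps SRFBP1 in the annotation, a gene whose log2 fold change was 0.57 (adjusted p = 0.136).

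FBLN5 encodes fibulin-5, a short fibulin that binds tropoelastin, lysyl oxidase-like 1 and cell surface integrins, and without which mice form disorganised elastic fibres. FBLN5 stood at a normalised read count of 803, 817 and 813 in the siGLI1 libraries, against 343, 339.8 and 325 in the siNT2 libraries. The 3 libraries of each group were nearly equal, with a coefficient of variation of 0.845% in siGLI1 and 2.89% in siNT2, the smallest of the 8 genes in each group. The reads behind them numbered 744, 799 and 823 in siGLI1 and 312, 335 and 407 in siNT2 libraries. Counting error alone gives a wider spread at such read numbers, so this closeness of 3 values does not measure how steady the gene is. Mean FBLN5 was 811 ± 6.85 in siGLI1 and 336 ± 9.70 in siNT2 cells (SD, n = 3 each), 2.42 times as high after the knockdown. In limma the log2 fold change of FBLN5 was 1.27 with a standard error of 0.12 (adjusted p = 0.00127; 95% interval 0.99 to 1.56). The increase was called in all 6 fits that left out a library (1.25 to 1.29). Its transcript has a GC content of 51.5%, and with the GC trend removed the change was 1.31.

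The promoters of FBLN5 are shown because it is the 1 gene of the 10 called higher and because GLI factors bind a known motif. The set of RefSeq (GRCh38.p14) promoter windows used here runs from 250 bases before to 50 after a gene start. It holds windows for 8 of the 10 genes, and ELN and EFEMP1, which it lacks, were not searched. FBLN5 has 2 such windows, both on the minus strand and printed 5′ to 3′ in the direction of the gene. Capitals mark the GLI core CCACCCA on the opposite strand (read here as TGGGTGG) and the TATA box TATAAA on the gene's own strand.
FBLN5 at chr14:91947645-91947944: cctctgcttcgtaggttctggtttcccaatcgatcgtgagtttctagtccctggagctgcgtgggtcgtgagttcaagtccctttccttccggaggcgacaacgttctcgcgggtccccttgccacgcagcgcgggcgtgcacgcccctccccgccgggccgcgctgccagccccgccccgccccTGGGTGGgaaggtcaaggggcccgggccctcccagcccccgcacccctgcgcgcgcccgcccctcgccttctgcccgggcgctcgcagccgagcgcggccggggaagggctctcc
FBLN5 at chr14:91946983-91947282: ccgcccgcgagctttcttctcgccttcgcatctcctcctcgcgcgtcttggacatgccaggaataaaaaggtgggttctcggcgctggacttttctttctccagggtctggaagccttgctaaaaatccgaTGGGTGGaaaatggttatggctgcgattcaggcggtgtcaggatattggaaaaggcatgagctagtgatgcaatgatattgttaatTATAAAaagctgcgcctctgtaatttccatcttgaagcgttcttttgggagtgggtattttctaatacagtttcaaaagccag
The GLI core lies 65 bases before the start in the window at 91947645 and 119 bases before it in the window at 91946983, where the TATA box begins 33 bases before the start. The searches covered both strands and found no overlap between motifs. Of 35116 promoter windows, 9.19% hold the 7-base core and 11.5% the TATA box. Among the 14 windows of these genes, the 2 of FBLN5 hold the core and 1 holds the TATA box. The full GLI motif GACCACCCA, which contains the core, is in 0.236% of all windows and 0 of the 14. A match is a description of the letters in the window and does not show that a factor binds there.

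FBLN1 encodes fibulin-1, which binds fibronectin, laminin and elastic fibres. Normalised FBLN1 counts were 434, 492 and 651 in the siGLI1 libraries, against 702, 873 and 801 in the siNT2 libraries. The groups did not overlap, with siGLI1 replicate 3 close to siNT2 replicate 1. The mean was 526 ± 112 in siGLI1 and 792 ± 86.1 in siNT2 cells (SD, n = 3 each). The difference in FBLN1 was -0.61 log2 units (95% interval -1.03 to -0.18), which limma did not call (adjusted p = 0.0653). The call depended on the treatment of the data: FBLN1 was called lower with the GC trend removed (-0.46, adjusted p = 0.0121, limma), with DESeq2 (adjusted p = 0.0366) and without siGLI1 replicate 3 (-0.77, adjusted p = 0.0178, limma), but not with edgeR (adjusted p = 0.0731).

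EFEMP2, or fibulin-4, brings lysyl oxidase to tropoelastin. EFEMP2 counts, normalised, were 235, 373 and 489.9 in the siGLI1 libraries, against 430.5, 641 and 437 in the siNT2 libraries. The groups overlapped, since siGLI1 replicate 3 exceeded siNT2 replicates 1 and 3. The log2 fold change was -0.49 (95% interval -1.16 to 0.17, adjusted p = 0.283, limma), and -0.26 with the GC trend removed (95% interval -0.54 to 0.02). It was -0.21 without siGLI1 replicate 1 and -0.31 without siNT2 replicate 2, and no fit without a library called it. EFEMP2 has the highest GC content of the 8 (62.9%), and its within-group SD was 0.15 log2 units after the removal, against 0.44 before it. It overlaps MUS81 at its locus, and MUS81 was not called (-0.35, adjusted p = 0.380). EFEMP1 (fibulin-3) had 1 read in siGLI1 replicate 3 and 0 in the other libraries, and FBLN2 (fibulin-2) had 1 read in each of siGLI1 replicates 2 and 3 and 0 elsewhere. A count of 0 allows up to 3 reads, or 2.39 to 3.29 normalised reads, so neither gene was detected above that limit, and no fold is given.

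A stretch of the 3′ UTR is shown for FBLN1 and LOX because the heptamer GCACCTC, picked with earlier results of these data known, had a higher share of lower calls among the genes that carry it. Of 1213 tested genes with the heptamer in the 3′ UTR of their longest coding GENCODE transcript, 18.2% were called lower, against 7.06% of the 11918 without it; this share cannot support the choice of the heptamer. Of the 10 genes, 2 carry it, once each. The heptamer is in capitals, and the 2 stretches are 27 bases from the transcript strand.
FBLN1: agccgcaggtGCACCTCcaggccaaat
LOX: ccccctcctgGCACCTCtaaacacacc
The site starts at base 28 of the 3′ UTR in FBLN1 and at base 2356 in LOX. FBLN1 had a log2 fold change below 0 and LOX above 0, and neither was called. ELN, which fell, and FBLN5, which rose, do not carry it in these transcripts.

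FBN1 and FBN2 encode the fibrillins, the large glycoproteins of the microfibril scaffold. FBN1 is the main form of adult tissue, and FBN2 is known mostly from development. The normalised read count of FBN1 was 1125, 1134 and 1011 in the siGLI1 libraries, against 1145, 1092 and 1650 in the siNT2 libraries. Only siNT2 replicate 3 stood clearly above the other 5 libraries. The log2 fold change was -0.23 (95% interval -0.65 to 0.19, adjusted p = 0.433, limma), and -0.04 without siNT2 replicate 3. With the GC trend removed it was -0.27 (adjusted p = 0.155, limma). FBN2 was at 1483, 1091 and 875 in the siGLI1 libraries, against 1893, 1270 and 2616 in the siNT2 libraries. The groups overlapped, with siGLI1 replicate 1 above siNT2 replicate 2. Its log2 fold change was -0.72 (95% interval -1.39 to -0.04, adjusted p = 0.138, limma), and -0.47 without siNT2 replicate 3. With the GC trend removed FBN2 was called lower (-0.74, adjusted p = 0.0391, limma).

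LTBP1 encodes a latent TGF-beta binding protein, which anchors the latent cytokine to microfibrils. LTBP1 had 3082, 3004 and 2270 normalised reads in the siGLI1 libraries, against 2391, 1904 and 3243 in the siNT2 libraries. The groups overlapped. The log2 fold change was 0.17 (95% interval -0.34 to 0.68, adjusted p = 0.633, limma), and it turned to -0.01 without siNT2 replicate 2. With the GC trend removed it was 0.21 (adjusted p = 0.473, limma).

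**Figure D3:**
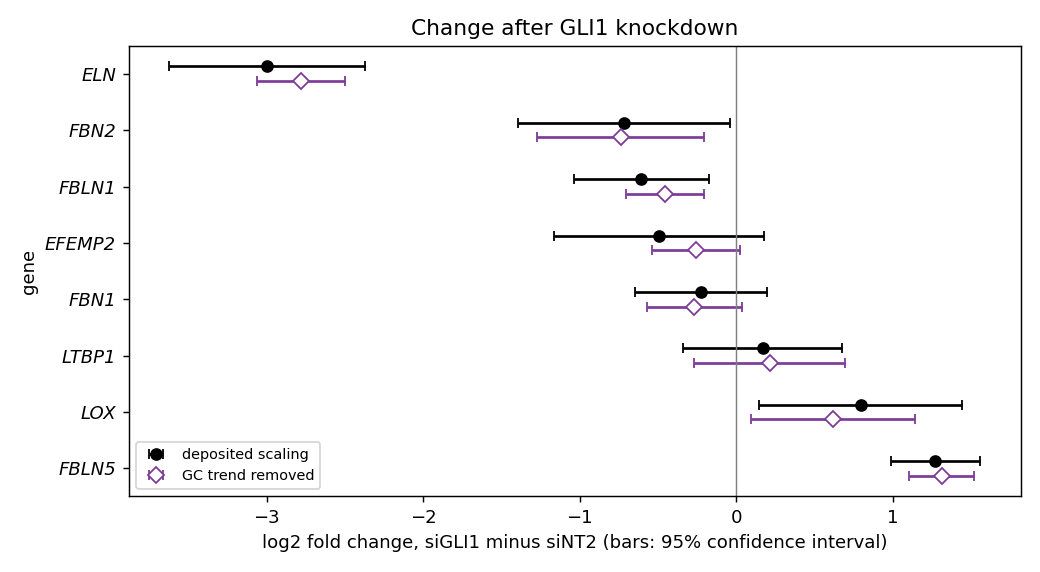
Log2 fold change (siGLI1 minus siNT2) of the 8 tested genes with 95% confidence intervals, with the deposited scaling (filled circles) and with each library's GC trend removed (open diamonds). ELN at -2.997 and FBLN5 at 1.27 lie farthest from 0 on either side under both, and the intervals of all 8 are narrower once the trend is removed.

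The spread within groups followed base composition in part. The 3 most GC-rich genes (EFEMP2, ELN and FBLN1) were each highest in siGLI1 replicate 3 and siNT2 replicate 2 and lowest in replicate 1 of both groups. FBN1, FBN2 and LTBP1 were the other way round, lowest in siGLI1 replicate 3 and siNT2 replicate 2. LOX was lowest in siNT2 replicate 2 too, but in siGLI1 replicate 1. Removing the GC trend lowered the within-group SD of FBLN1 to 0.12 log2 units, against 0.24 before it. It moved that of FBN2 to 0.40, against 0.46 before it, and that of LTBP1 to 0.36, against 0.32 before it. With the trend removed, 1 of the 8 genes was called higher (FBLN5) and 3 lower (ELN, FBLN1 and FBN2). In that fit 17.4% of all genes were called higher and 16.7% lower, both larger shares than in the main test. The median log2 fold change of the 8 genes was -0.26.

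Divided by transcript length, the levels changed their order. Levels per kb were not corrected for GC content or for reads lost at exon junctions, which may differ between genes. In siGLI1 cells LTBP1 was highest, with 439.8 ± 70.8 normalised reads per kb (SD, n = 3), then FBLN5 with 335 ± 2.83, and these neighbours did not overlap. FBLN1 (181 ± 38.8), EFEMP2 (180.01 ± 62.6), ELN (152 ± 52.8), FBN2 (103 ± 27.7) and FBN1 (92.7 ± 5.82) followed, and each of them overlapped the next in level per kb. LOX was lowest, at 15.5 ± 2.74 reads per kb, below every other gene. In siNT2 cells ELN was highest by level per kb, with 1177 ± 231, and overlapped no other gene. LTBP1 (397 ± 107), FBLN1 (273 ± 29.7), EFEMP2 (247 ± 58.9), FBN2 (173 ± 60.5), FBLN5 (139 ± 4.00) and FBN1 (110.2 ± 26.2) followed in siNT2 cells, each overlapping the next, and LOX was last at 9.09 ± 2.81.

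The summed level of the 8 genes was 1499 ± 63.4 reads per kb in siGLI1 and 2525 ± 254 in siNT2 cells (SD, n = 3 each). ELN made up 10.03% ± 3.16 of that sum in siGLI1 and 46.4% ± 5.76 in siNT2 cells. FBLN5 made up 22.4% ± 0.794 in siGLI1 and 5.53% ± 0.694 in siNT2 cells. Among the detected fibulins (FBLN1, FBLN5 and EFEMP2) the FBLN5 share was 55.5%, 48.8% and 41.9% in the siGLI1 libraries, against 23.8%, 18.5% and 21.4% in the siNT2 libraries. The summed level per kb of these 3 fibulins was 696 ± 102 in siGLI1 and 659 ± 86.0 in siNT2 cells, a difference within the spread between libraries. The FBN2 share of the fibrillins was 52.1% ± 5.43 in siGLI1 and 60.4% ± 4.64 in siNT2 cells. These shares rest on the uncorrected levels per kb, describe the libraries and were not tested.

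**Figure D4:**
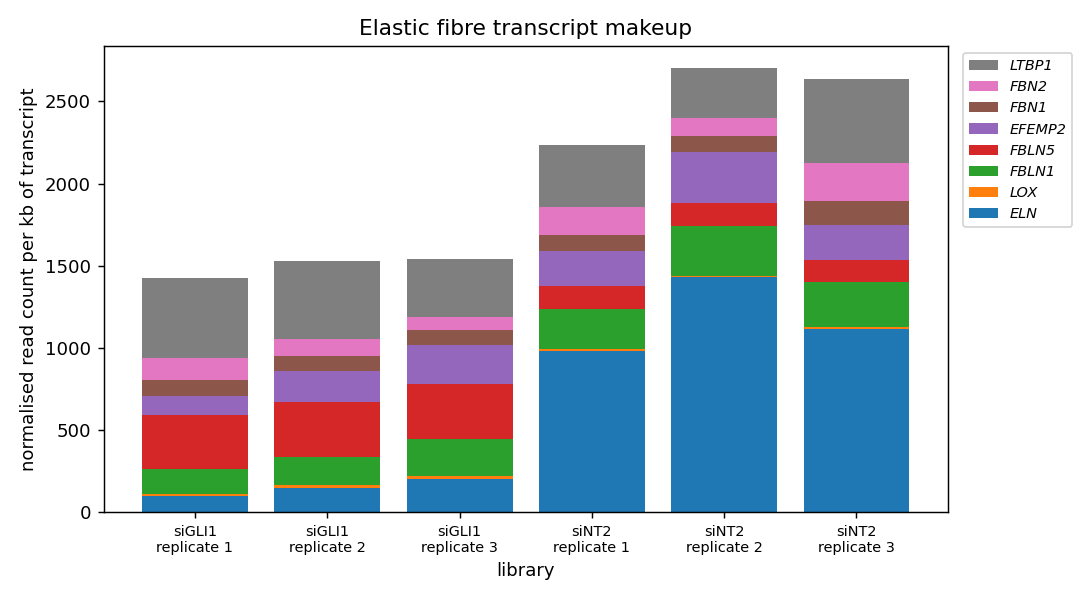
Stacked normalised read count per kb of transcript of the 8 tested genes in each library. The ELN block is the largest in all 3 siNT2 libraries (42.2% to 53.0% of the sum) and holds 7.02% to 13.3% in the siGLI1 libraries, where the FBLN5 block holds 21.7% to 23.2%.

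Genes that work with elastic fibres moved in both directions. Of 69 genes in 6 wider lists, all were in the table and 55 were tested, of which 12 rose and 7 fell. Their median log2 fold change was 0.08, against -0.01 over all genes. No count over a list was tested against other genes, and the share called can be read against the 7.21% and 8.0% of all tested genes.

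The cross-linking enzymes split. Of 12 genes for cross-linking, processing and copper supply, 2 rose and 3 fell (median -0.16). LOXL1, the lysyl oxidase relative needed for elastic fibre upkeep, was at 210.1 ± 67.001 in siGLI1 and 577 ± 85.7 in siNT2 cells (SD, n = 3 each; log2 fold change -1.49, adjusted p = 0.00762, limma), a call lost without siGLI1 replicate 2. LOXL4 was at 195 ± 9.89 in siGLI1 and 490.2 ± 41.5 in siNT2 cells (log2 fold change -1.32, adjusted p = 0.00169, limma). LOXL2, which acts on collagen IV, rose by 0.72 (adjusted p = 0.0216, limma), a call lost without siGLI1 replicate 2, siNT2 replicate 1 or siNT2 replicate 2. TLL2, an astacin protease related to BMP1, rose by 1.58 (adjusted p = 0.00148, limma) and was at 767 ± 48.8 in siGLI1 and 258 ± 44.3 in siNT2 cells. The third that fell was BMP1, which cleaves the LOX precursor (-0.95, adjusted p = 0.0494, limma). It was named after its values were seen, and its call held only without siGLI1 replicate 3 among the 6 fits that left out a library.

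Of 14 tested microfibril-associated genes, 3 rose and 2 fell (median -0.22, and -0.02 with the GC trend removed). MFAP4, a fibrinogen-like protein that binds tropoelastin and fibrillin, was at 657 ± 145 in siGLI1 and 1417 ± 267 in siNT2 cells (log2 fold change -1.11, adjusted p = 0.0142, limma), and the call was lost without siGLI1 replicate 2 or siNT2 replicate 3. EMILIN3, of the elastin microfibril interfacer family, was at 155 ± 15.0 in siGLI1 and 391 ± 73.1 in siNT2 cells (log2 fold change -1.32, adjusted p = 0.00401, limma). LTBP2, which binds fibrillin but not latent TGF-beta, rose by 1.0105 (adjusted p = 0.0231, limma), a call kept only without siGLI1 replicate 1 or siGLI1 replicate 3. The metalloprotease ADAMTS6 rose by 0.92 (adjusted p = 0.0300, limma), a call kept in 1 of the 6 fits, the one without siGLI1 replicate 3. ADAMTSL2, which binds LTBP1 and was named after its values were seen, rose by 1.09 (adjusted p = 0.0333, limma), a call lost without siGLI1 replicate 2, siNT2 replicate 1 or siNT2 replicate 3.

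Of 9 tested genes for the storage and release of latent TGF-beta, 3 rose and 0 fell (median 0.65). The ligand gene TGFB3 was at 366 ± 34.5 in siGLI1 and 132 ± 16.96 in siNT2 cells (log2 fold change 1.47, adjusted p = 0.00209, limma). ITGB5, an integrin subunit that pairs with alpha v, was at 3297 ± 85.7 in siGLI1 and 1922 ± 28.4 in siNT2 cells (log2 fold change 0.78, adjusted p = 0.00473, limma). ITGB6, whose integrin activates latent TGF-beta, rose by 2.13 (adjusted p = 0.0270, limma), a call lost without siGLI1 replicate 2 or siNT2 replicate 1. ITGB8 was at 1083 ± 457 in siGLI1 and 643 ± 166 in siNT2 cells and was not called (adjusted p = 0.205).

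Of 9 tested genes for elastin-degrading proteases and their inhibitors, 2 rose and 0 fell (median 0.37). CTSS, the elastolytic cathepsin S, rose by 0.81 (adjusted p = 0.0492, limma), and TIMP2, a metalloproteinase inhibitor, by 0.50 (adjusted p = 0.0268, limma). Each was called in 1 of the 6 fits that left out a library, CTSS without siNT2 replicate 3 and TIMP2 without siGLI1 replicate 3. CTSK (0.66, adjusted p = 0.144) missed the threshold, as did CTSL (-0.41, adjusted p = 0.0661, limma), though CTSL was called lower with the GC trend removed (adjusted p = 0.0243, limma).

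Of 9 tested matrix partners of fibulins, 2 rose and 2 fell (median 0.32). VCAN, the large proteoglycan versican that fibulins bind, was at 1766 ± 473 in siGLI1 and 4413 ± 1533 in siNT2 cells (log2 fold change -1.30, adjusted p = 0.0230, limma), a call lost without siGLI1 replicate 2, siNT2 replicate 1 or siNT2 replicate 3. HSPG2, the basement membrane proteoglycan perlecan, fell by 1.15 (adjusted p = 0.0491, limma), a call kept only without siGLI1 replicate 3. TNC, the matrix glycoprotein tenascin C, was at 14471 ± 1730 in siGLI1 and 6743 ± 1780 in siNT2 cells (log2 fold change 1.13, adjusted p = 0.0108, limma), and the call was lost without siGLI1 replicate 2 or siNT2 replicate 1. BCAN, a proteoglycan of the nervous system, rose by 1.15 (adjusted p = 0.0177, limma), a call lost without siGLI1 replicate 2, siNT2 replicate 1 or siNT2 replicate 3.

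The long fibulins outside the 10 genes are HMCN1 and HMCN2, the hemicentins. HMCN1 was at 1454 ± 590 in siGLI1 and 1461 ± 548 in siNT2 cells (log2 fold change -0.02, adjusted p = 0.973, limma). HMCN2 was at 791, 1630 and 2043 in the siGLI1 libraries, against 549, 988 and 508 in the siNT2 libraries. Its groups overlapped, and its log2 fold change of 1.08 was not called (adjusted p = 0.100, limma). With the GC trend removed it was 1.35 (adjusted p = 0.000888, limma). FBLN7 was under the filter, with means of 2.68 in siGLI1 and 4.69 in siNT2 cells.

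**Figure D5:**
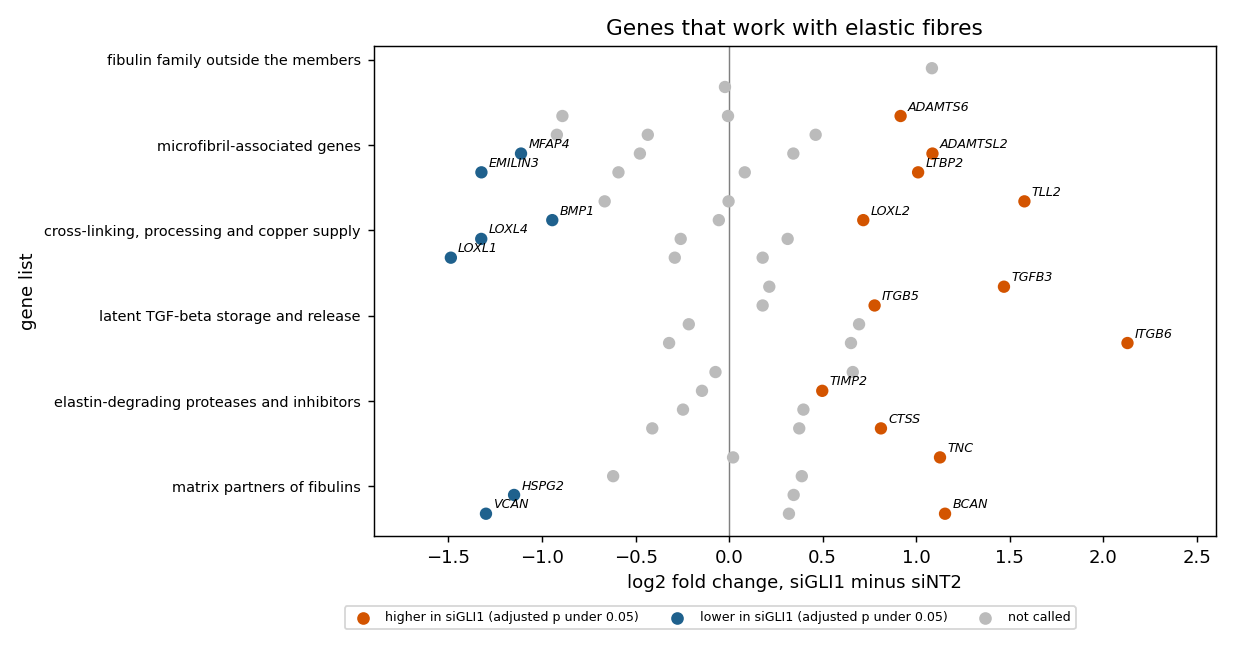
Log2 fold change (siGLI1 minus siNT2) of the 55 tested genes of the 6 wider lists, 1 point per gene, coloured by whether limma called it higher, lower or neither at an adjusted p under 0.05. All lists but the hemicentins hold called genes, and the cross-linking list holds 2 higher and 3 lower.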

How the data were processed

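RNA from 3 siGLI1 and 3 siNT2 libraries of RMS13 cells was analysed. Tools listed per the submitters' processing notes are Trim Galore 0.4.5 with bcl2fastq, Bowtie2 2.3.3.1, Subread 1.6.4 (featureCounts) and DESeq2 2.11.40.6, on the build hg19; annotation, strand setting and multimapping rules are not given. Bowtie2 does not split reads over introns, so reads across exon junctions may be lost in both groups, possibly more in some genes than in others.

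The authors deposited signal values, gene read counts divided by a size factor per library and not by length. All values (100.0% per library, tolerance 0.01 reads) were whole multiples of 1 read, so reads were recovered. Symbols came from RefSeq (GRCh38.p14; 23696 of 25702 IDs matched), GC content, length and 3′ UTRs from the longest coding transcript per gene in GENCODE release 29, and promoters from RefSeq. Of the tested genes 14438 (92.4%) had a GC value. No pair of libraries of a group agreed within sampling noise. Limits for a count of 0 hold for counting error alone (PCR copies of a molecule count more than once).

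The main test was limma 3.58.1 in R 4.3.3 (lmFit, eBayes with trend, group as the only term) on log2(deposited value + pseudocount), with a pseudocount of 1. It took the 15622 genes with a mean of 10 or more, with Benjamini-Hochberg adjustment over all of them and a threshold of 0.05. The log scale understates the change of low genes. On the recovered reads, edgeR 4.0.16 (quasi-likelihood) called 1182 genes higher and 1200 lower, 2320 of them shared with limma, and DESeq2 1.42.0 was another alternative. The GC fit subtracted from each library a lowess curve of its deviation from the gene mean on GC content. The scripts (Python 3.11.15) were tested on simulated data. The simulated counts had a fixed dispersion and no GC trend, so they do not show how the fits perform on libraries that differ along GC content.

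The 10 genes and the wider lists were chosen with earlier results of these data known. Named genes were the 10, GLI1, the hemicentins and FBLN7, up to 4 tested genes with the smallest p of each wider list, and the 5 genes most like the one with the smallest p. Others are said to be named after their values were seen. Some items that these rules name are not reported here.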

Additional observations from a re-analysis of the deposited data

How the results depend on the processing

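The ELN and FBLN5 calls and directions held under every alternative run. Called genes of the 10 were 1 higher and 1 lower, with 2 lower under DESeq2, 3 lower with the GC trend removed, 2 lower with the replicate block and GC trend removed, and 3 higher and 4 lower with library weights. Leaving out 1 library gave 1 higher and 1 to 2 lower. The second lower call was FBLN1 without siGLI1 replicate 3 (-0.77). LTBP1 ranged from -0.013 (without siNT2 replicate 2, a reversal) to 0.371 without a library. Over all genes, 1127 were higher and 1249 lower in the main test, and 1645 and 1634 under DESeq2. These counts were 2515 and 2409 with the GC trend removed, and 462 and 508 with the replicate block. With block and GC trend removal they were 2012 and 1923, and with library weights 6209 and 6410. Leaving out 1 library gave 283 (without siGLI1 replicate 2) to 1562 (without siGLI1 replicate 3) higher and 358 to 1705 lower in the same fits. Of the genes in the wider lists, 5 were higher and 5 lower with the replicate block. With the GC trend removed 17 were higher and 13 lower, and with library weights 29 were higher and 19 lower. Leaving out 1 library gave 3 to 12 higher (fewest without siGLI1 replicate 2 or siNT2 replicate 1) and 2 to 10 lower (fewest without siGLI1 replicate 2). The cause of these shifts was not tested. The weights did not converge (70.4 for siNT2 replicate 1, 0.143 for siNT2 replicate 2). In the sample descriptions, same-numbered siGLI1 and siNT2 libraries share a prefix, which may mark a pairing, though its meaning is not given. Deviations of same-numbered libraries correlated at 0.49, -0.11 and -0.61, and only siNT2 replicate 1 correlated best with its own number. These deviations also follow the GC trend of each library, so the correlations cannot decide whether the libraries were paired. The block alone changed no call among the 10 genes, and added to the GC fit it lost that of FBN2 (adjusted p = 0.0616, limma). Of the 8 tested genes LOX had the fewest reads, 30 to 93 a library.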

Other observations

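Below the filter on low values, LRRC32, a cell surface docking protein for latent TGF-beta, was at 0, 0 and 2.96 normalised reads in the siGLI1 libraries, against 9.88, 18.3 and 26.3 in the siNT2 libraries. The siGLI1 libraries were all at or under the limit that a count of 0 allows. ADAMTS10, a metalloprotease that binds fibrillin-1, was at 3.24, 2.04 and 7.90 in the siGLI1 libraries and at 0 in all 3 siNT2 libraries. Both genes were named after their values were seen, and neither was tested.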
